A study of Rattus norvegicus with 16 samples.

Results

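The comparison described here is that of LPA4-knockout (KO) with wild-type (WT) rats after a sham operation, that is, the effect of genotype without nerve injury. It rests on 8 of the 16 libraries of the series, 4 WT sham and 4 KO sham, chosen by their labels. All were poly(A) RNA libraries from the spinal dorsal horn, which the series describes as lumbar, taken 28 days after surgery. The other 8 libraries came from WT and KO rats with spared nerve injury (SNI), in which branches of the sciatic nerve are cut to model neuropathic pain. They entered the estimate of the spread and served as a separate comparison of the same genotypes. Where an operation would stand, the titles of the 4 KO sham samples read "WT"; they were taken as sham because the count table heads these columns KO sham and the series design knows sham and SNI operations. The labels give no strain, sex, age or knockout allele, and do not say whether WT and KO rats were littermates. They also do not state that the libraries of a group are from different rats, so each p-value here reflects variation among libraries, which may be technical.

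LPA4 is a G protein-coupled receptor for lysophosphatidic acid, a lipid messenger that is made outside cells and acts on a family of receptors. LPA4 is more closely related in sequence to the P2Y nucleotide receptors than to the first described LPA receptors. Lysophosphatidic acid has been studied in the dorsal horn as a signal that can start neuropathic pain. The dorsal horn holds the neurons that receive pain and touch input from the limb, together with astrocytes, microglia and oligodendrocytes. In such bulk tissue, fewer cells of a type and less RNA per cell cannot be told apart. A comparison of sham-operated animals asks what the receptor's loss does to this tissue after surgery without nerve injury.

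The table identifies genes by Ensembl rat IDs only, and 0 of its 30560 IDs could be paired with a symbol here. Genes are therefore described by ID, level and difference, and neither the targeted gene nor the markers of the dorsal horn could be looked up by name. Of the 30560 IDs, 11050 had 0 counts in all 8 sham libraries, and 15237 had enough counts to be tested.

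Among these 15237 IDs the genotypes were close to each other. Levels are in CPM, read counts scaled to the size and composition of each library, and differences are log2 fold changes of KO sham over WT sham. The median size of the log2 fold change, regardless of sign, was 0.10; the scaling itself centres the signed values near 0. Only 2 IDs passed an adjusted p of 0.05 (edgeR's quasi-likelihood test with Benjamini-Hochberg adjustment), which is 0.0131% of those tested. In KO, 1 was lower (0.00656%) and 1 higher (0.00656%). Without WT sham replicate 2, the library that stood apart most, 1 of 15340 IDs passed (0.00652%), the lower one.

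The WT sham libraries held 15790243 to 25096694 counts and the KO sham libraries 17130951 to 24612494. Over the 8 sham libraries, WT sham replicate 2 lay at 86.4 on the first principal component of log2 CPM, which held 52.7% of the variance, against -26.7 to -0.32 for the other 7. It also had the lowest total, and its median correlation with the other sham libraries was 0.946. KO sham replicate 4 lay at 41.0 on the second component, which held 13.3%, against -17.2 to 5.42 for the other 7, and its median correlation was 0.980, where the remaining 6 had 0.984 to 0.987. The genotypes were not separated on either component. The mean first component, KO minus WT, was -25.8 (exact permutation test over 70 arrangements, two-sided p = 0.429), and -1.25 without WT sham replicate 2 (exact permutation test over 35 arrangements, p = 0.886). For the second component, p was 0.343 and 0.200. The smallest p these designs allow is 0.0286. The tests without WT sham replicate 2 used scores on components computed from all 8 sham libraries. Those components were not recomputed for the other 7, so these tests do not describe the main axes of the 7 alone. The median SD of log2 CPM within a group was 0.21 in WT sham and 0.16 in KO sham, and it was 0.13 over the 3 WT sham libraries without replicate 2.

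The lower ID was absent from KO. ENSRNOG00000002428 had 112, 65, 108 and 81 counts in WT sham replicates 1 to 4 and 0 counts in each of the 4 KO sham libraries. Scaled for depth, the WT sham libraries lay within a narrow range, 4.34 to 4.49 CPM, with a mean of 4.39 ± 0.0679 CPM (SD, n = 4). Its KO sham level was at least 125-fold lower, taking 3 counts over the group as a floor (edgeR adjusted p = 5.09e-06). The floor covers counting error only. It was the only one of the 30560 IDs with 0 counts in every KO sham library and at least 10 in every WT sham library, and 0 IDs showed the reverse. With a looser limit of at least 1 count in every library of one genotype and 0 in all of the other, 2 IDs were seen in WT alone and 6 in KO alone. In the SNI libraries, ENSRNOG00000002428 again had 0 counts in each KO library and 80 to 113 in each WT library. The files do not pair this ID with a name, so it is not given here as the count of the targeted gene.

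The higher ID was present in both genotypes. ENSRNOG00000070277 was at 7.88, 7.26, 7.59 and 6.37 CPM in WT sham replicates 1 to 4 and at 11.2, 14.7, 12.2 and 11.3 CPM in KO sham replicates 1 to 4. Every KO sham library was above every WT sham library, and the highest value was that of KO sham replicate 2. The log2 fold change was 0.76 (SE 0.11, edgeR adjusted p = 0.0274), with a 95% confidence interval of 0.53 to 0.99. The estimate hardly moved without WT sham replicate 2, at 0.75, but the adjusted p became 0.0910 in edgeR. DESeq2 called it with that library (adjusted p = 2.62e-06) and without it (adjusted p = 9.35e-05), and limma voom only with it (adjusted p = 0.0459, and 0.143 without). The call also ended without WT sham replicate 1, 3 or 4 or KO sham replicate 2, 3 or 4 (edgeR adjusted p of up to 0.163, and just above the threshold without KO sham replicate 4), with log2 fold changes of 0.67 to 0.80. It ended when only the 8 sham libraries were fitted (log2 fold change 0.77, edgeR adjusted p = 0.934). Over the 22 alternatives run, adjusted p ranged up to 1.0.

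In the SNI libraries the same ID gave a separate reading. ENSRNOG00000070277 was at 6.19 ± 0.419 CPM in WT SNI and 11.7 ± 0.99 CPM in KO SNI (SD, n = 4 each). The log2 fold change was 0.92 (SE 0.11, edgeR adjusted p = 0.00246), again with no overlap between the genotypes. The ID stayed past the threshold in each of the 19 alternatives run for it. Those that left out sham libraries alone could act on this contrast only through the filter, the scaling and the shared spread. Only the fit without KO SNI replicate 1 and WT sham replicate 2 left out an SNI library (log2 fold change 0.96, edgeR adjusted p = 0.00467). The other SNI libraries were not left out in turn. The difference between the effects after SNI and after sham was 0.16 (95% confidence interval -0.16 to 0.49, edgeR adjusted p = 0.978). The sham and SNI comparisons have no library in common, but the model gives both the same estimate of the spread.

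**Figure D1:**
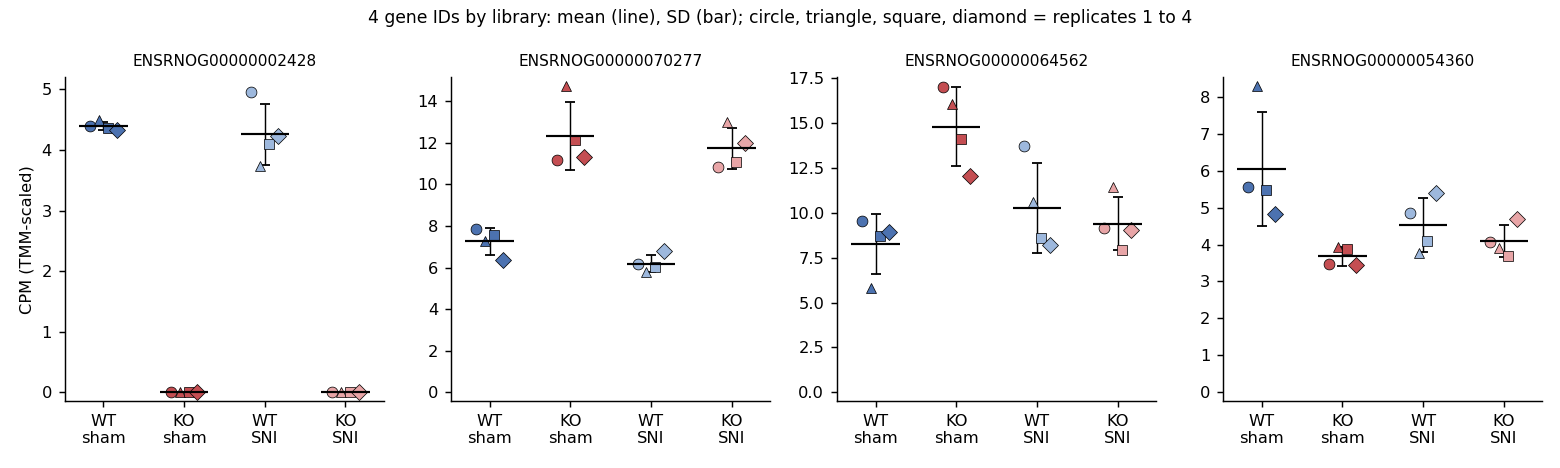
CPM (vertical axes, each starting at 0) of 4 gene IDs in the 16 libraries, grouped by genotype and operation, with 1 marker per library, a line for the mean and a bar for the SD. ENSRNOG00000002428 is at 0 in all KO libraries, ENSRNOG00000070277 is higher in KO after both operations, and the 2 uncalled IDs on the right separate the genotypes after sham only.

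The next IDs in order of p were not called by edgeR. ENSRNOG00000064562 had the smallest p among uncalled higher IDs. It was at 9.56, 5.80, 8.72 and 8.94 CPM in WT sham replicates 1 to 4 and at 17.0, 16.1, 14.1 and 12.1 CPM in KO sham replicates 1 to 4. These values did not overlap, and WT sham replicate 2 was the lowest. The log2 fold change was 0.84 (SE 0.18, edgeR adjusted p = 0.878), with a 95% confidence interval of 0.44 to 1.23, and 0.70 without WT sham replicate 2. DESeq2, another count model, did call it (adjusted p = 0.0409, where the 22 alternatives run ranged from 0.0409 to 1.0), but not without WT sham replicate 2 (DESeq2 adjusted p = 0.317). After SNI its log2 fold change was -0.13 (95% confidence interval -0.52 to 0.26), and the genotypes overlapped.

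ENSRNOG00000054360 had the smallest p among uncalled lower IDs whose average log2 CPM reached 0. It was at 5.57, 8.29, 5.49 and 4.82 CPM in WT sham replicates 1 to 4 and at 3.47, 3.93, 3.88 and 3.46 CPM in KO sham replicates 1 to 4. The groups did not overlap, and WT sham replicate 2 was the highest. The log2 fold change was -0.71 (SE 0.17, edgeR adjusted p = 0.878), with a 95% confidence interval of -1.06 to -0.35, and -0.53 without WT sham replicate 2. After SNI it was -0.14 (95% confidence interval -0.49 to 0.21). DESeq2 did not call this ID after sham either (DESeq2 adjusted p = 0.239). For neither of these uncalled IDs did the interaction of genotype and operation pass (edgeR adjusted p = 0.978 for both). Its estimate was -0.96 for ENSRNOG00000064562 (95% confidence interval -1.51 to -0.41) and 0.56 for ENSRNOG00000054360 (0.06 to 1.06). Both intervals leave out 0 before adjustment, but the IDs were picked by their p after sham, which favours such a difference.

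At an unadjusted p under 0.05 there were 592 IDs, or 3.89% of those tested, of which 271 were higher (1.78%) and 321 lower (2.11%) in KO. Without WT sham replicate 2 this was 329 of 15340 IDs (2.14%), and 214 of the 592 were among them. The number also moved with other libraries, to 1155 without WT sham replicate 4, 919 without WT sham replicate 1 and 320 without KO sham replicate 4, and was 570 to 793 without any 1 of the remaining 4. Groups did not overlap for 304 IDs after sham (2% of those tested), 171 higher (1.12%) and 133 lower (0.873%), and for 181 IDs after SNI (1.19%). Only 5 IDs had no overlap in both comparisons and in the same direction (0.0328%), and 2 had no overlap in both but in opposite directions (0.0131%). The 5 included both called IDs. The remaining 3 had log2 fold changes of 0.71, 0.35 and -0.33 after sham and 0.55, 0.36 and -0.32 after SNI. For each of them the edgeR adjusted p was 0.878 after sham and 0.9999 after SNI. They were picked for no overlap in the same direction in both comparisons, so that choice fixed the match in direction. How many such IDs chance would give was not tested.

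The largest differences rested mainly on WT sham replicate 2. Estimates over 2-fold were found for 220 IDs, 54 higher and 166 lower in KO. Without that library, 77 of the 220 were still over 2-fold in the same direction, 38 of the higher and 39 of the lower. The total was then 137 IDs, 78 higher and 59 lower, so that the excess of lower IDs was not seen. Leaving out any 1 of the other 7 sham libraries, which kept WT sham replicate 2, gave 234 to 358 IDs over 2-fold, the most without WT sham replicate 4 (358) and WT sham replicate 1 (353). Of the 50 largest estimates other than ENSRNOG00000002428, 45 were lower in KO, WT sham replicate 2 was the highest of the 8 sham libraries for 40, and edgeR called none of the 50. The largest of these whose average log2 CPM reached 2 shows the pattern: its ID had 1198 counts in WT sham replicate 2, 98 in replicate 3, and 3 and 6 in replicates 1 and 4, against 5 to 12 in KO sham. Its log2 fold change was -5.76 (95% confidence interval -8.94 to -2.59) with all libraries and -1.91 without WT sham replicate 2.

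Single estimates moved widely with this library. The log2 fold changes with and without it had a Pearson r of 0.596 across the 15237 IDs, which are not independent replicates, and 3713 IDs changed sign. Leaving out any other sham library gave r from 0.924 to 0.970. ENSRNOG00000002428, at -9.63 with all libraries and -9.65 without WT sham replicate 2, is included in these correlations and raises them. They were not computed without this ID. Compared with the mean of the other 3 WT sham libraries, WT sham replicate 2 was over 2-fold higher for 762 IDs and over 2-fold lower for 1109. What sets the library apart was not tested.

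**Figure D2:**
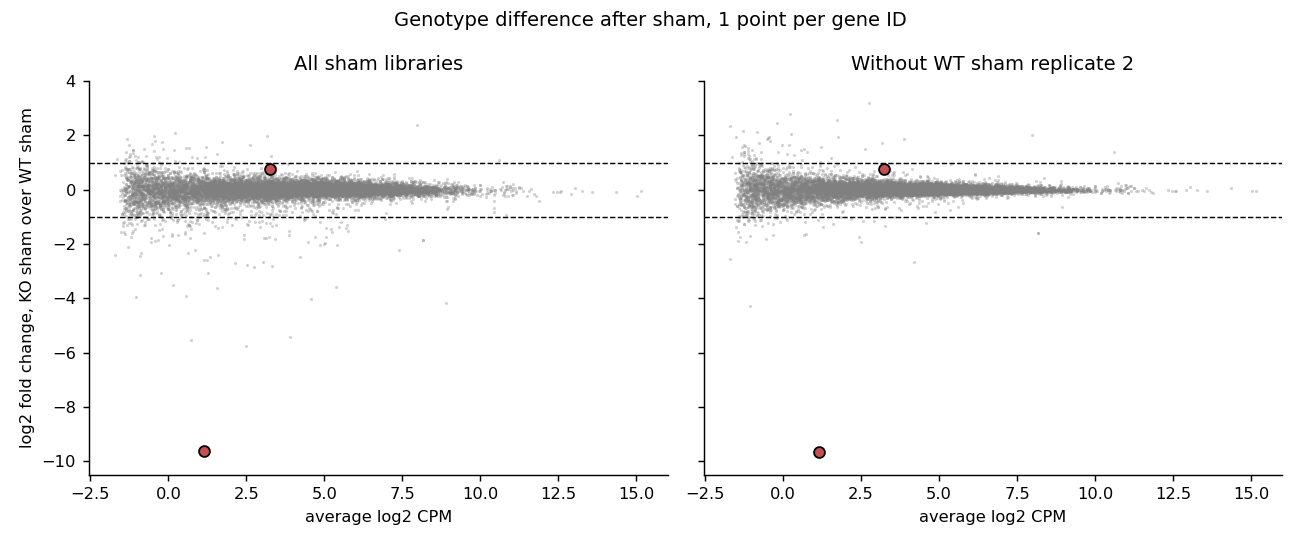
Log2 fold change of KO sham over WT sham (vertical axis) against average log2 CPM over all 16 libraries (horizontal axis) for each tested ID, with all libraries and without WT sham replicate 2. Dashed lines mark 2-fold and red points the 2 called IDs. The band of IDs below -1 on the left, part of the 166 lower IDs, is thinner on the right, where 39 of the 166 stay below -1. Both panels draw the 15237 IDs tested with all libraries.

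The size of difference that these libraries leave possible was read from the 95% confidence interval of each log2 fold change. A difference over a given fold was counted as excluded for an ID when its whole interval lay inside that fold in both directions. A change over 2-fold was excluded for 13157 IDs (86.3%), over 1.5-fold for 10481 (68.8%), over 3-fold for 14539 (95.4%) and over 1.25-fold for 5752 (37.8%). For 50% of IDs the interval reached no further than 1.32-fold, for 75% no further than 1.61-fold, for 90% no further than 2.22-fold and for 95% no further than 2.89-fold. The median SE was 0.13 on the log2 scale. For 2080 IDs a 2-fold difference in at least 1 direction was not excluded.

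Each interval covers a single ID, and with 15237 of them some miss the true value. A pair of one-sided tests of equivalence per ID, adjusted over all IDs by the Benjamini-Hochberg method, placed 13597 IDs (89.2%) within 2-fold and 10903 (71.6%) within 1.5-fold. These counts exceed those from the 95% intervals, but the tests set a looser limit. Each is one-sided, and the adjustment limits only the share of wrong placements among the IDs placed. The higher counts therefore do not show that the bounds improve, or hold for every ID, after correction for the number of IDs. With 99% intervals in place of 95%, the counts within 2-fold and 1.5-fold were 12101 (79.4%) and 8823 (57.9%).

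Without WT sham replicate 2 the bounds became tighter over all IDs, although not in the class of the lowest level. The filter then kept 15340 IDs in place of 15237, so the 2 fits do not cover the same set. A change over 2-fold was then excluded for 13536 of 15340 IDs (88.2%) and over 1.5-fold for 11309 (73.7%), and 50% of IDs had intervals within 1.28-fold. Leaving out any 1 of the other 7 sham libraries gave 82.3% to 85.3% for 2-fold and 62.8% to 68.6% for 1.5-fold. The KO against WT comparison after SNI, with the same number of libraries, excluded a change over 2-fold for 89.4% of IDs and over 1.5-fold for 73.1%.

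**Figure D3:**
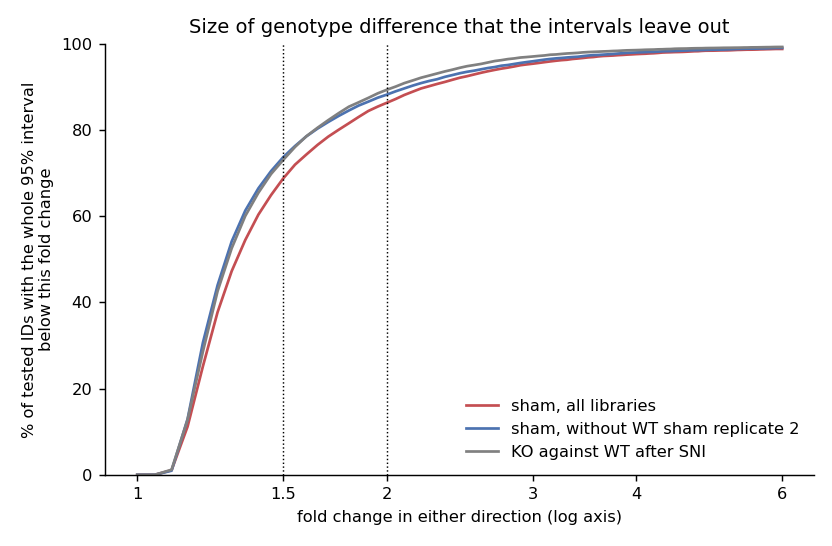
Percentage of tested IDs (vertical axis) whose whole 95% interval of the genotype difference lies below the fold change on the horizontal log axis, for sham with all libraries, sham without WT sham replicate 2, and SNI. At the dotted 2-fold line the curves stand at 86.3%, 88.2% and 89.4%, and at the 1.5-fold line at 68.8%, 73.7% and 73.1%.

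The precision depended on the level of an ID. Of 1189 IDs with an average log2 CPM below 0, a change over 2-fold was excluded for 238 (20.0%) and over 1.5-fold for 1, and the median SE was 0.45. From 0 to 2 log2 CPM (2030 IDs), these shares were 69.3% and 20.0%. From 2 to 4 (3692 IDs) they were 91.9% and 70.5%, and from 4 to 6 (5119 IDs) they were 97.0% and 88.7%. The 2654 IDs from 6 to 8 log2 CPM were bounded most often, with 98.6% and 92.2% and a median SE of 0.09. In the class of 8 and above (553 IDs) the shares were 97.3% and 88.4%. Low IDs thus made up most of the unbounded ones: 951 of the 2080 lay below 0 log2 CPM and 624 from 0 to 2. Among higher levels, 154 IDs from 4 to 6, 36 from 6 to 8 and 15 at 8 and above were not bounded within 2-fold. Without WT sham replicate 2 these 3 numbers were 40, 11 and 7, while that below 0 log2 CPM was 1071 of 1300 IDs, with a change over 2-fold excluded for 17.6% and a median SE of 0.47. The classes of the 2 fits hold different sets of IDs, 1189 against 1300 below 0 log2 CPM, so their shares do not compare the same IDs.

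**Figure D4:**
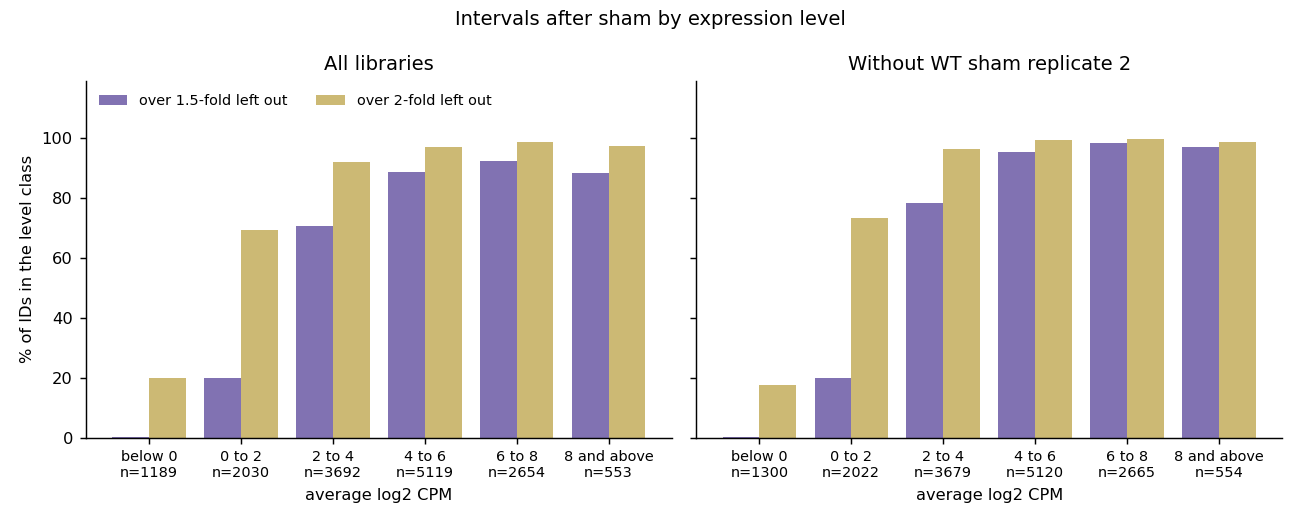
Percentage of IDs (vertical axis) in each class of average log2 CPM (horizontal axis, with the number of IDs) for which a difference over 1.5-fold or over 2-fold lies outside the 95% interval, with all libraries and without WT sham replicate 2. Bars for 2-fold rise from 20.0% below 0 log2 CPM to 98.6% at 6 to 8 on the left, and from 17.6% to 99.6% on the right.

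The IDs ranked first after sham did not, as sets, keep their direction after SNI. Of the 100 IDs with the smallest p among those higher in KO after sham, 37 were higher in KO after SNI, where 52.4% of all tested IDs were. Their median log2 fold change was 0.38 after sham, which the ranking fixed, and -0.04 after SNI. Of the 100 such IDs lower in KO after sham, 38 were lower after SNI, with medians of -0.67 and 0.05. Ranked without WT sham replicate 2, 43 of 100 higher and 50 of 100 lower IDs kept their direction after SNI. In that fit, 51.5% of all tested IDs were higher in KO after SNI. With KO SNI replicate 1 also left out, 31 of 100 higher and 37 of 100 lower IDs kept it, where 48.2% of all were higher.

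Across all IDs the effects after sham and after SNI had a Pearson r of -0.186 and a Spearman rank correlation of -0.0823, and 46.8% had the same sign. The Pearson value depended on 1 ID and 2 libraries, while the rank correlation and the share of equal signs did not turn. Leaving out ENSRNOG00000002428, r was -0.286. Without WT sham replicate 2 as well it was 0.0797, and with KO SNI replicate 1, which lay apart from its group, also left out it was -0.133. In the fits without WT sham replicate 2, and without it and KO SNI replicate 1, the rank correlation over all IDs was -0.112 and -0.211, and 44.1% and 40.9% of IDs had the same sign. The values describe these libraries; IDs share them and are not independent. The interaction, which tests whether the genotype effect differed between operations, called 0 of 15237 IDs in edgeR (smallest adjusted p = 0.978), with 468 (3.07%) at an unadjusted p under 0.05, and 1 in DESeq2.

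**Figure D5:**
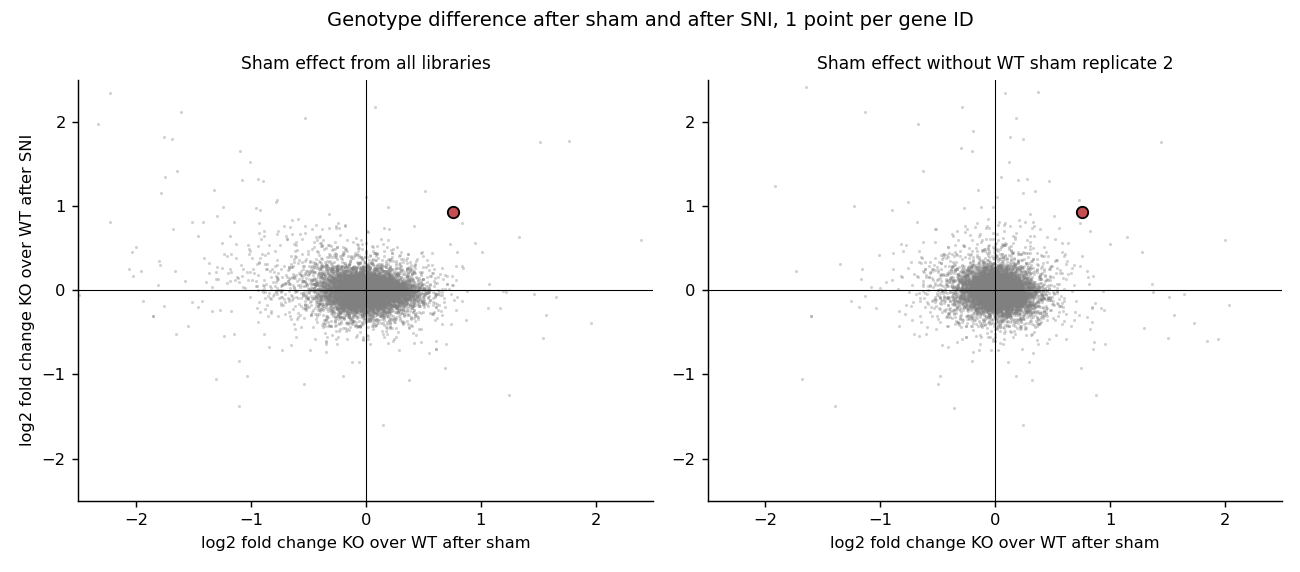
Log2 fold change of KO over WT after SNI (vertical axis, all libraries) against that after sham (horizontal axis, with and without WT sham replicate 2) for the 14048 IDs whose average log2 CPM reached 0. Of these, 24 on the left and 17 on the right lie outside the axes, ENSRNOG00000002428 among them, and the red point in the upper right is ENSRNOG00000070277, at 0.76 and 0.92 with all libraries.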

How the data were processed

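Libraries were made from poly(A) RNA with a kit that keeps strand, per the labels' protocols. RSEM 1.3.1, STAR 2.7.9a, fastp 0.22.0 and the rat build mRatBN7.2 are listed, with no role, in the submitters' processing notes. Annotation release and strand setting: not given in the sources used here. Values in the deposited table are expected counts, estimated read counts per Ensembl gene that need not be whole, not scaled for depth; reads matching several genes are divided among them.

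Counts were rounded. IDs were kept by filterByExpr of edgeR 4.0.16 (minimum count 10), which left 99.97% of counts. After TMM scaling, all 16 libraries entered 1 quasi-likelihood model in R 4.3.3 with a coefficient for each of the 4 groups and a common estimate of the spread (common biological coefficient of variation 18.0%). P-values were adjusted over all IDs by the Benjamini-Hochberg method at 0.05. The SE is the log2 fold change divided by the root of its F, and intervals use the model's degrees of freedom. Log2 CPM for principal components, correlations and overlap used a prior count of 2. DESeq2 1.42.0 and limma 3.58.1 were alternatives, and the model was checked on simulated data.

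The table used for names lists 47357 genes of the assembly GRCr8, 0 of them with an Ensembl ID, so the planned 29 gene lists, the lookup of the targeted gene and names for genes were not used here. IDs are named by rule: those called, and in each direction the uncalled ID with the smallest p among those whose average log2 CPM reached 0. The members, lists and rules were chosen with earlier results of these data known. No libraries of the same sham group agreed within sampling noise (chi-square over its degrees of freedom, 11.5 to 78.7).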

Additional observations from a re-analysis of the deposited data

Results flagged for a closer look

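Values of the 4 libraries of a group were checked for 1 that is far from the remaining 3. This was so in 3 of 28 sets, and chance would flag about 1 in 20 if the sets were independent. They are not, as several sets measure the same libraries, and WT sham replicate 2 was flagged on more than 1 of them. On the first principal component of the sham libraries, WT sham replicate 2 was at 86.4 and the rest of its group between -20.8 and -4.43. With the remaining sham libraries, WT sham replicate 2 correlated at a median of 0.946, compared with 0.984 to 0.987 in the rest of its group. KO sham replicate 4 had a median correlation of 0.980, compared with 0.986 to 0.987 in the rest of its group.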

How the results depend on the processing

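The count of 2 called IDs was 1 in most other fits. It was 4 with DESeq2 (2 higher, 2 lower), 1 with only the 8 sham libraries, 1 in the 7 sham libraries without WT sham replicate 2, 1 with WT sham replicate 2 left out together with KO SNI replicate 1, and 1 with it left out together with KO sham replicate 4, a fit added after seeing the data, as were DESeq2 and limma voom without WT sham replicate 2 (2 and 1 called). Of the 2 lower IDs called by DESeq2, 1 was ENSRNOG00000002428, and the other is not among the IDs named here. It was not ENSRNOG00000054360 (DESeq2 adjusted p = 0.239). Leaving out 1 sham library at a time in edgeR gave 1 to 2 called IDs. With the replicate number as a block it was 1, as the call of ENSRNOG00000070277 ended (log2 fold change 0.75, edgeR adjusted p = 0.152), and 0 over the 8 sham libraries with that block (508 IDs at an unadjusted p under 0.05); fewer degrees of freedom remain there, and the smallest edgeR adjusted p was 0.885, so that the call of ENSRNOG00000002428 ended in this 1 of its 22 alternatives. No consistent pairing by replicate number was seen: deviations of same-numbered sham libraries correlated at -0.205 to 0.166 over 4 pairs, and 3 of the 8 libraries correlated best with their own number. So few pairs cannot settle the question, and whether libraries of the same number share a batch was not tested. The interaction called 0 in edgeR and limma voom and 1 in DESeq2; the cause was not tested. The number of IDs with a change over 2-fold excluded ran from 12101 to 13899 and over 1.5-fold from 8823 to 11794 over 25 alternatives each, without 1 sham library from 12644 to 13536 and from 9656 to 11309, all within 1.5 times the reported counts. None of the named IDs changed direction in the alternatives run. Low counts limited the bounds: with every ID above 0 counts kept, 69.0% of 20140 IDs had a change over 2-fold excluded and 6241 did not, while at an average of 1 CPM or more the share was 92.2%.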
